A study of Homo sapiens with 9 samples.

Results

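The first step of embryoid body formation was described from 3 of the 9 arrays of the series: both day 7 arrays made without ethanol, 1 with nothing added and 1 with an additive abbreviated FA, against the single array of undifferentiated cells. All cells were NCCIT, a human embryonal carcinoma line derived from a germ cell tumour. Embryoid bodies are floating cell aggregates, here formed in bacterial dishes to which cells do not attach, with the medium replaced daily. The other 6 arrays held embryoid bodies given 50 mM ethanol at day 7, or kept to day 21 with or without ethanol and FA, and they enter below through the spread between arrays and as levels for comparison. The protocol describes 7 days of culture, and how the cells of the day 21 arrays were kept is not described. Neither label nor protocol says what FA stands for or how much was added. Each condition was measured on 1 Affymetrix whole-transcript array, so no condition has a replicate, and the labels do not say whether arrays came from separate cultures. Day, aggregation and the change of dish differ together between the groups and cannot be told apart.

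Embryonal carcinoma cells share the self-renewal network of pluripotent embryo cells, and lose it as they differentiate. Inside an aggregate, oxygen and nutrients reach cells by diffusion. Low oxygen stabilises the HIF transcription factors, which raise genes of glycolysis, oxygen sensing and blood vessel growth. Shortage of amino acids activates the integrated stress response, in which the factor ATF4 raises genes for amino acid synthesis, uptake and tRNA charging.

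A gene was taken as called when limma's test of the mean of both day 7 arrays minus the undifferentiated array gave a Benjamini-Hochberg adjusted p under 0.05 and both arrays lay on the same side. Of 12254 genes tested, 3569 were called (29.1%), 1190 higher at day 7 (9.71%) and 2379 lower (19.4%), and 4976 had an unadjusted p under 0.05. With each array centred on its median, which shifts every difference by -0.08 on the log2 scale, 849 were called higher and 3240 lower, so that 20.76% of calls were higher, against 33.34% on the deposited values. Without the day 7 FA array 627 genes were called higher and 1109 lower, and without the day 7 array with no addition 529 and 1055. Counts for single lists with a day 7 array left out, given below, stand beside these lower totals. Most differences were small: the median called fold was 1.44 for higher genes and 1.35 for lower genes, and the median difference of all genes tested was -0.05. A difference of at least 2-fold in both day 7 arrays was reached by 122 genes upward (0.996%) and 43 downward (0.351%), all of them called. Both day 7 arrays lay on the same side of the undifferentiated array for 10864 genes (88.66%) and on opposite sides for 1169.

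The 2 day 7 arrays were close to each other: 0 genes differed 2-fold between them and 2 differed 1.5-fold, while 914 genes differed 1.5-fold from undifferentiated cells in both. FRZB, a secreted WNT antagonist, had a log2 level of 6.78 with FA, 6.13 without addition and 7.02 in undifferentiated cells. IDNK, a gluconate kinase, had 7.13, 6.55 and 7.13. Neither gene was called, and there is no replicate of the FA comparison. H2BC21, a histone H2B gene, had the largest of the differences toward lower values with FA, at 10.22 with FA, 10.73 without addition and 10.89 in undifferentiated cells, together with TFPI at 6.93, 7.44 and 6.78.

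Markers were looked at to check the labels. Of 26 embryonal carcinoma markers with a probe set of their own, 25 lay above the median of all values (7.71) on each of the 3 arrays, with medians of 10.62 without addition and 10.60 with FA at day 7, against 10.93 in undifferentiated cells. Of 26 markers of other cell types (fibroblast, endothelium, blood, neuron, trophoblast, yolk sac and liver, heart, germ cell, keratinocyte), 5 lay above it on each array, and their summed log2 level was 171.6 and 172.1 at day 7 against 172.5 in undifferentiated cells. Of these 26, 20 were too dim to test, so the sum can register little, and neither count shows a moderate change. In RNA of whole cultures, fewer cells of a type and less RNA per cell cannot be told apart.

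**Figure D1:**
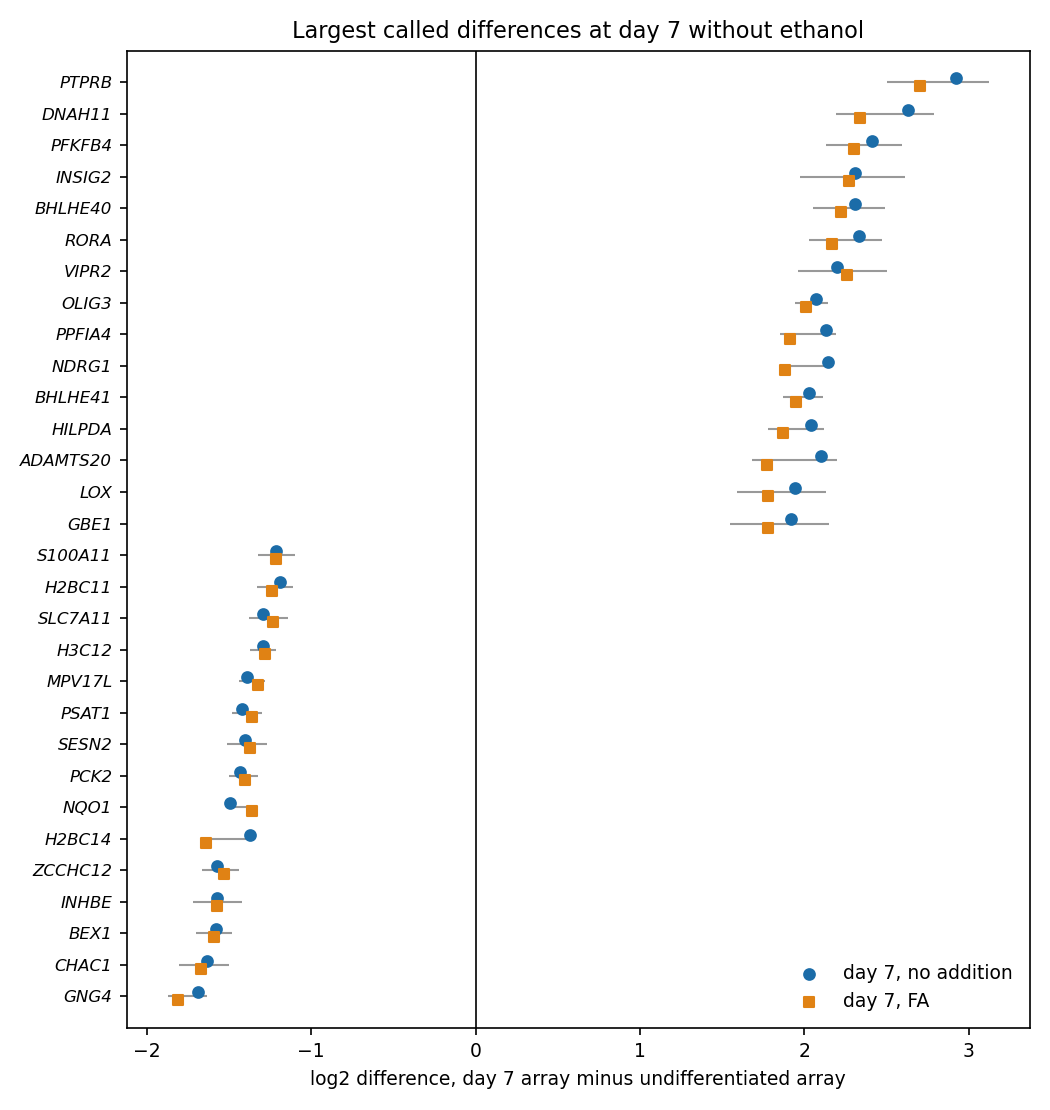
Log2 difference (x axis) of each day 7 array from the undifferentiated array for the 15 largest called differences in each direction (y axis); circles are the array without addition, squares the FA array, and the grey bars the mean with limma's SE on either side. Both arrays lie on the same side of 0 for every gene shown, as a call requires. The means run from 1.85 to 2.81 above 0 and from -1.75 to -1.21 below it.

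Genes of the hypoxia response rose at day 7. Of 34 tested members of the list, 28 were called higher (82.4%, against 9.71% of all genes) and 0 lower, 19 at least 2-fold in both arrays. The median difference was 1.16, against -0.05 over all genes tested. The count was 28 with arrays centred and 26 when either day 7 array was left out, and at an unadjusted p under 0.05 29 members were higher and 0 lower. PFKFB4, an enzyme that makes the glycolytic activator fructose-2,6-bisphosphate, had log2 levels of 10.96 without addition and 10.85 with FA at day 7, against 8.54 in undifferentiated cells, a difference of 2.36 ± 0.23 (limma SE) or 5.13-fold (adjusted p = 0.0012). INSIG2, which holds back cholesterol synthesis from the endoplasmic reticulum, had 11.30 and 11.26 at day 7 against 8.99 (4.90-fold, adjusted p = 0.00261). BHLHE40, a transcriptional repressor of the hypoxia response and the circadian clock, had 11.51 and 11.43 against 9.21 (4.81-fold, adjusted p = 0.00111). For all 3 genes both day 7 arrays lay close together and more than 2 log2 units above undifferentiated cells.

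PPFIA4, a liprin, NDRG1, a stress response gene, and LOX, which cross-links collagen, followed with differences of 2.02, 2.01 and 1.86. HILPDA, a lipid droplet protein that is not on the list, had 11.36 and 11.19 at day 7 against 9.32 in undifferentiated cells (3.87-fold, adjusted p = 0.000851). Members outside the rule for named genes, picked after their values were seen, included VEGFA, the main growth factor for blood vessels, with 10.90 and 10.72 at day 7 against 9.20 (3.05-fold, adjusted p = 0.000726). EGLN1 and EGLN3, the oxygen-sensing prolyl hydroxylases, rose by 1.11 and 0.94, and P4HA1 and P4HA2, subunits of the collagen prolyl hydroxylase, 3.41-fold and 2.83-fold. The histone demethylases KDM3A, KDM4B and KDM4C, which also need oxygen, rose by 1.45, 0.73 and 1.04. The transcripts of the HIF alpha subunits did not pass the test: HIF1A had 11.52 on both day 7 arrays against 11.63 in undifferentiated cells, EPAS1 7.46 and 7.51 against 7.66, and HIF3A 8.09 and 8.07 against 7.94. The other 3 members not called were AK4, ANGPTL4 and STC2, with differences of 0.02, 0.25 and 0.14. AK4 had 2 probe sets and the value is that of the brighter, so it may not speak for the gene.

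HIF binds DNA at elements built around the letters ACGTG, so these letters were searched on both strands from 250 bases before to 50 bases after the start of each gene, in RefSeq windows of GRCh38.p14. Among called higher hypoxia genes, 14 of 23 windows held them (60.9%), against 55.2% of 29 windows of all tested hypoxia genes, 40.4% of 94 windows of genes at least 2-fold higher in both day 7 arrays, 26.8% of all tested genes and 21.6% of all windows. The windows of the 2 called hypoxia genes with the largest difference among those that held a match are shown, INSIG2 at chr2:118088221-118088520 and BHLHE40 at chr3:4979187-4979486, both on the plus strand and 5′ to 3′ with the matches in capitals. INSIG2 had 1 match, read on the opposite strand, whose first base lay at position -95 from the start, and BHLHE40 had 4, of which the first 2 overlap on opposite strands.
INSIG2: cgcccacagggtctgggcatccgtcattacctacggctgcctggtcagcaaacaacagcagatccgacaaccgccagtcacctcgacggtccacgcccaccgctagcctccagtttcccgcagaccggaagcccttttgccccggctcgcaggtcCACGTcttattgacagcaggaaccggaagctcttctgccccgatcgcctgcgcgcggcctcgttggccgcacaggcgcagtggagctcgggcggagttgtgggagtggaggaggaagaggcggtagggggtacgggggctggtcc
BHLHE40: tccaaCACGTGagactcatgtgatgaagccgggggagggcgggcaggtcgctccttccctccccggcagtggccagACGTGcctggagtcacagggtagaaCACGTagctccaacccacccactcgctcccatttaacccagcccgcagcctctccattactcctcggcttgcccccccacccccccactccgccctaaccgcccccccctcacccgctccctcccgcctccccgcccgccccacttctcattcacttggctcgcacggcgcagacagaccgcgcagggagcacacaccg
The sets overlap, since hypoxia genes are also among those at least 2-fold higher in both day 7 arrays. The hypoxia list covers kinds of gene that HIF raises, so its share beside that of all genes is not a separate test. A match of 5 letters is a description of the window and not evidence of binding.

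Glucose handling genes rose beside them. Of 23 tested glycolysis genes, 15 were called higher (65.2%, against 9.71% of all genes) and 0 lower, with a median difference of 0.50. With arrays centred 12 were called higher. Fewer were called, as over all genes, when either day 7 array was left out. GBE1, the glycogen branching enzyme, had 10.62 and 10.48 at day 7 against 8.70 in undifferentiated cells (3.60-fold, adjusted p = 0.00421). SLC2A1, the glucose transporter GLUT1 that is on both lists, had 13.42 and 13.41 against 12.20 (2.32-fold, adjusted p = 0.000532). PDK1, which keeps pyruvate out of the mitochondrion, had 11.90 and 11.83 against 10.69, and HK2, the first enzyme of glycolysis, 11.36 and 11.26 against 10.21. Not every step moved: GAPDH, a gene often used as a loading control and named here after its values were seen, had 13.79 and 13.75 at day 7 against 13.70 and was not called, nor were HK1, PFKL, PFKM, ALDOA, TPI1, LDHB and GYS1. At an unadjusted p under 0.05, 16 members were higher and 0 lower.

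Genes of the mitochondrial respiratory chain went the other way. Of 28 tested members, 14 were called lower (50%, against 19.4% of all genes) and 1 higher (3.57%, against 9.71%). The median difference was -0.26, and fewer were called lower, as over all genes, without the day 7 array with no addition. NDUFB3, a complex I subunit, had 7.66 and 7.60 at day 7 against 8.39 in undifferentiated cells (1.69-fold lower, adjusted p = 0.00561), and CYC1, cytochrome c1 of complex III, had 9.13 and 9.15 against 9.78 (1.55-fold lower). NDUFS4 was the member called higher, at 9.73 and 9.75 against 9.22.

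Some genes of the circadian clock rose, in a list drawn up after values were seen. Of 15 tested members, 7 were called higher (46.7%, against 9.71% of all genes), 8 were not called and 0 were lower, with a median difference of 0.50. RORA, a nuclear receptor that drives BMAL1 transcription, had 10.28 and 10.12 at day 7 against 7.95 in undifferentiated cells (4.77-fold, adjusted p = 0.00114). BHLHE41, the partner of BHLHE40, had 10.17 and 10.09 against 8.14 (3.98-fold, adjusted p = 0.000378), and CIART, a repressor of the clock, 9.28 and 9.20 against 7.74. NFIL3, PER1 and PER3 rose by 0.68, 0.56 and 0.50, and BHLHE40 is counted in this list too. CLOCK, CRY1, CRY2, PER2 and NPAS2 were not called, with differences from -0.19 for CRY1 to 0.32 for CLOCK. BMAL1, too dim to test, had 6.74 and 6.85 at day 7 against 7.20 in undifferentiated cells.

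**Figure D2:**
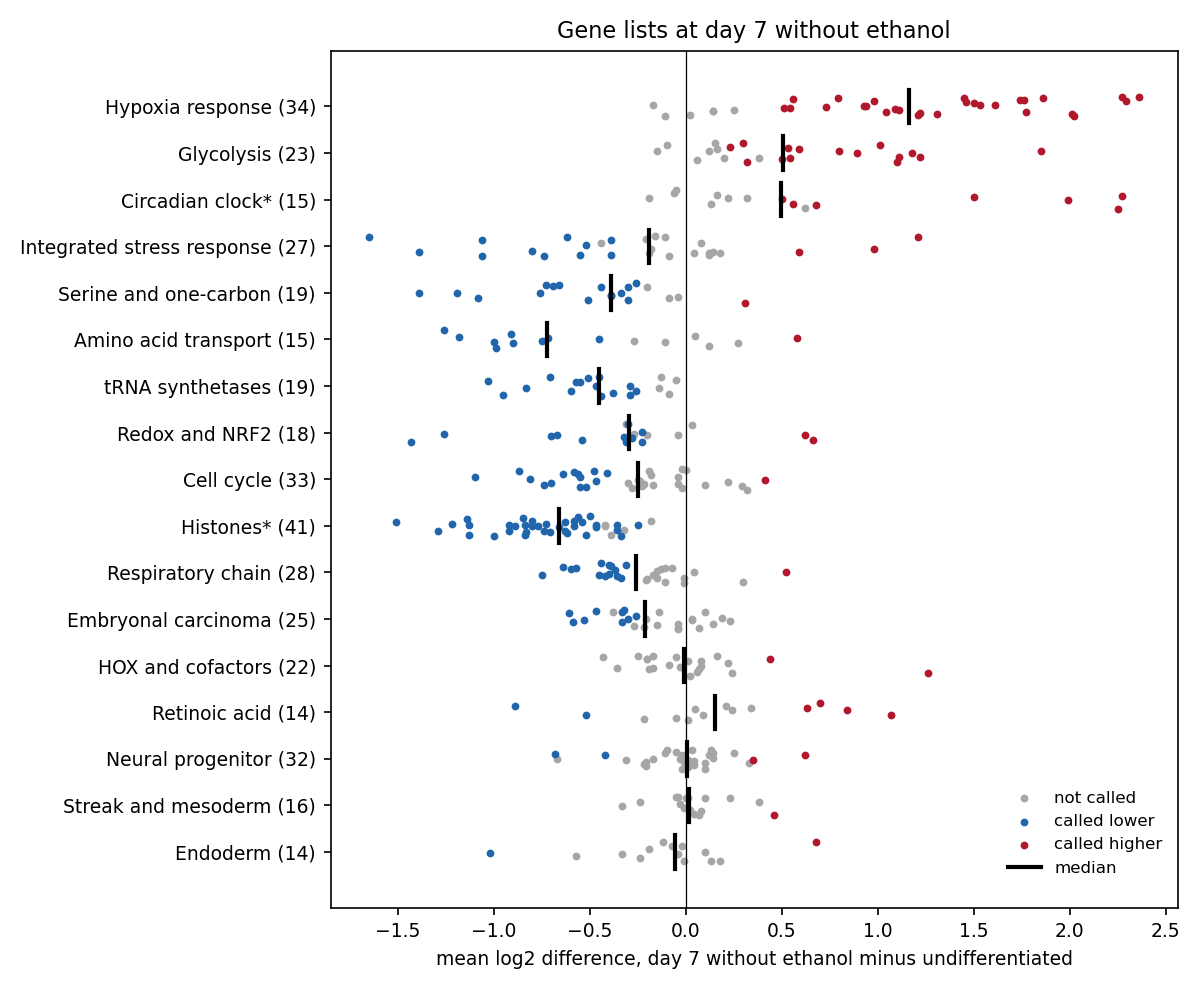
Mean log2 difference of day 7 without ethanol minus undifferentiated (x axis) for each tested member of 17 lists (y axis, number tested in brackets), in red where called higher, blue where called lower and grey where not called; black bars are list medians and asterisks mark lists drawn up after values were seen. The hypoxia list has the highest median, 1.16, and the histone and amino acid transport lists lie lowest, at -0.66 and -0.72.

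Genes for amino acid supply fell at day 7. Of 19 tested genes of serine and one-carbon metabolism 15 were called lower (78.9%), of 15 amino acid transporters 9 (60%), and of 19 aminoacyl-tRNA synthetases 15 (78.9%). Of all genes 19.4% were. In these lists 1, 1 and 0 were called higher, and the median differences were -0.39, -0.72 and -0.45. PSAT1, an enzyme of serine synthesis, had 9.86 and 9.92 at day 7 against 11.29 in undifferentiated cells (2.63-fold lower, adjusted p = 0.000442). SLC7A11, the cystine importer, had 10.29 and 10.35 against 11.58 (2.39-fold lower, adjusted p = 0.0012). WARS1, the tryptophanyl-tRNA synthetase, had 10.48 on both day 7 arrays against 11.51 (2.05-fold lower, adjusted p = 0.000785). All 19 synthetases lay below undifferentiated cells on both day 7 arrays, and the 4 not called, EPRS1, LARS1, QARS1 and RARS1, had differences from -0.14 to -0.05. When either day 7 array was left out 8 genes of the serine list were called lower, without the day 7 array with no addition 10 synthetases were, and without the FA array 11.

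PCK2, the mitochondrial enzyme that makes phosphoenolpyruvate, fell as well, at 8.05 and 8.07 on the day 7 arrays against 9.47 in undifferentiated cells (2.66-fold lower, adjusted p = 0.000462). ALDH1L2 and MTHFD2, mitochondrial folate enzymes, and PSPH, the last enzyme of serine synthesis, fell by 1.19, 0.73 and 1.08. SLC7A5 and SLC7A1, carriers of large neutral and of cationic amino acids, fell by 1.18 and 1.00. SLC36A1, a lysosomal amino acid carrier, was the transporter called higher, and MTR, the methionine synthase, the gene called higher in the serine list.

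The integrated stress response list moved in both directions, with a median difference of -0.19. Of 27 tested members 11 were lower (40.7%, against 19.4% of all genes) and 3 higher (11.1%, near the 9.71% of all genes). CHAC1, which degrades glutathione, had 8.92 and 8.88 at day 7 against 10.55 in undifferentiated cells (3.14-fold lower, adjusted p = 0.00104). SESN2, a leucine sensor that restrains mTORC1, had 8.71 and 8.73 against 10.11 (2.62-fold lower, adjusted p = 0.000892), and ASNS, the asparagine synthetase, 9.50 and 9.56 against 10.59 (2.09-fold lower, adjusted p = 0.00104). ATF4 itself, named after its values were seen, had 10.34 and 10.41 against 11.11. The 3 members called higher were DDIT4, an mTORC1 inhibitor that HIF also raises, at 11.25 and 11.23 against 10.03, VLDLR, a lipoprotein receptor on the hypoxia list too, and DDIT3, a pro-apoptotic factor. HSPA5, HYOU1, PDIA4, SDF2L1, DNAJB9 and MANF, chaperones and folding factors of the endoplasmic reticulum, were not called, with differences between -0.21 and 0.12.

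ATF4 binds composite elements that contain TGATGNAA, where N is any base, and these letters were searched on both strands in the same windows. They were found in 11 of 39 windows of called lower genes from the 4 amino acid and stress lists (28.2%), in 20.9% of the windows of all 67 tested members, in 7.14% of 28 windows of genes at least 2-fold lower in both day 7 arrays, in 1.69% of those of all tested genes and in 3.67% of all windows. CHAC1 at chr15:40953221-40953520 on the plus strand and ASNS at chr7:97872359-97872658 on the minus strand are shown because they had the largest fall among members that held a match. Each held 1, in capitals, at positions -209 and -68 from the start.
CHAC1: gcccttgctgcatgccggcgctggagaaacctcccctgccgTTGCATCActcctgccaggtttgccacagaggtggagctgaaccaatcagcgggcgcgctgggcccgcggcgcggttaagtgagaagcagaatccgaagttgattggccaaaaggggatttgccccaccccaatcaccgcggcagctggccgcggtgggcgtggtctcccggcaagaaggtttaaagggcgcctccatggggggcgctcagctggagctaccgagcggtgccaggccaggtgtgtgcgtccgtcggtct
ASNS: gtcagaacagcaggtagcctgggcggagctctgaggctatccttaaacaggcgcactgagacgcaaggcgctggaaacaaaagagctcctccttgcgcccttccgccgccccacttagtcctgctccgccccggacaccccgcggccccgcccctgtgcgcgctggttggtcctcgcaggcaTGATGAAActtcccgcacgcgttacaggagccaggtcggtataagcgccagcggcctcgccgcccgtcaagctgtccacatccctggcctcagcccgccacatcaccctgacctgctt
The match of CHAC1 is read on the opposite strand. CHAC1 and ASNS are also the 2 genes with a match among the 28 windows of genes at least 2-fold lower. The 4 lists cover kinds of gene that ATF4 raises, so their share beside that of all genes is not a separate test. A match describes the window and is not evidence of binding.

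Redox genes, many of them targets of the factor NRF2, fell in 11 of 18 tested cases (61.1%, against 19.4% of all genes) and rose in 2 (11.1%, against 9.71%). Their median difference was -0.29, and fewer were called lower, as over all genes, when either day 7 array was left out. NQO1, a quinone reductase, had 8.60 and 8.73 at day 7 against 10.10 in undifferentiated cells (2.69-fold lower, adjusted p = 0.000378). GCLM, the regulatory subunit of glutathione synthesis, had 7.38 and 7.37 against 8.04, and SLC7A11 is on this list too. AKR1C1, an aldo-keto reductase with close paralogs, and FTL, the ferritin light chain, were the members called higher.

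Replication-dependent histone genes fell almost throughout. This list was taken by gene symbol after values were seen. Of 41 tested members 36 were called lower (87.8%, against 19.4% of all genes) and 0 higher. All 41 lay below undifferentiated cells on both day 7 arrays, with a median difference of -0.66 (39 lower and 0 higher at an unadjusted p under 0.05). H2BC14 had 9.86 and 9.60 at day 7 against 11.24 in undifferentiated cells (2.84-fold lower, adjusted p = 0.000785), H3C12 had 8.43 and 8.44 against 9.73 (2.44-fold lower, adjusted p = 0.000402), and H2AC12 had 7.65 and 7.71 against 8.82. By class, 10 of 10 H2A genes, 11 of 13 H2B, 5 of 5 H3, 8 of 10 H4 and 2 of 3 H1 genes were called lower. Without the FA array 3 of the H4 genes were called lower. These genes are near-identical copies, so probes can share signal: H4C14 and H4C15 carried the same value on every array. Of the 41 members, 3 passed the filter on dim genes through the undifferentiated array alone. The transcripts of these genes lack the poly(A) tail that most messenger RNAs carry, and they are made in S phase.

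Histone H2B genes carry an octamer, ATTTGCAT, bound by POU factors. It was present, on either strand, in 9 of 11 windows of called lower H2B genes (81.8%) and 10 of 13 windows of tested ones (76.9%), against 1.51% of those of all tested genes and 1.80% of all windows. H2BC14, the histone gene with the largest difference, is shown from chr6:27814772-27815071 on the plus strand with the octamer in capitals, at position -48 from the start.
H2BC14: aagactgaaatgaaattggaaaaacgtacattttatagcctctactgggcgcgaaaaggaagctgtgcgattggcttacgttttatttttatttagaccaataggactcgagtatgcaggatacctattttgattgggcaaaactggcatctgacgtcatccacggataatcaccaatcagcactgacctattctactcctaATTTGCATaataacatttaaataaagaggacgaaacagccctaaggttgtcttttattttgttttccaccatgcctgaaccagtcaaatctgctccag
An octamer is a feature of H2B promoters in general and was also present where a gene was not called.

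Some cell cycle genes fell. Of 33 tested members 14 were called lower (42.4%, against 19.4% of all genes) and 1, the D-type cyclin CCND2, higher, with a median difference of -0.25. CDC25A, the phosphatase that opens S phase, had 8.99 and 8.95 at day 7 against 10.07 in undifferentiated cells (2.14-fold lower, adjusted p = 0.000532). CDC6, a replication licensing factor, had 9.78 and 9.72 against 10.62, MCM6, a subunit of the replicative helicase, 9.99 on both against 10.80, and CCNE1, cyclin E1, 8.97 and 9.0 against 9.72. The 18 members not called, named after their values were seen, included CCNE2, CDK2 and CCND1 with differences of -0.30, -0.23 and 0.29, and MKI67, TOP2A and CCNB1 with -0.04, -0.02 and -0.18. In the DNA methylation and chromatin list 4 of 19 were called higher (21.1%, against 9.71% of all genes) and 6 lower (31.6%, against 19.4%). Fewer were called in each direction, as over all genes, when either day 7 array was left out. UHRF1, which brings DNA methylation to replicated DNA, had 8.69 and 8.65 against 9.69 (2.03-fold lower, adjusted p = 0.00127), and TET1, which oxidises methylated cytosine, had 11.41 and 11.39 against 10.41 (1.99-fold higher, adjusted p = 0.00395).

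**Figure D3:**
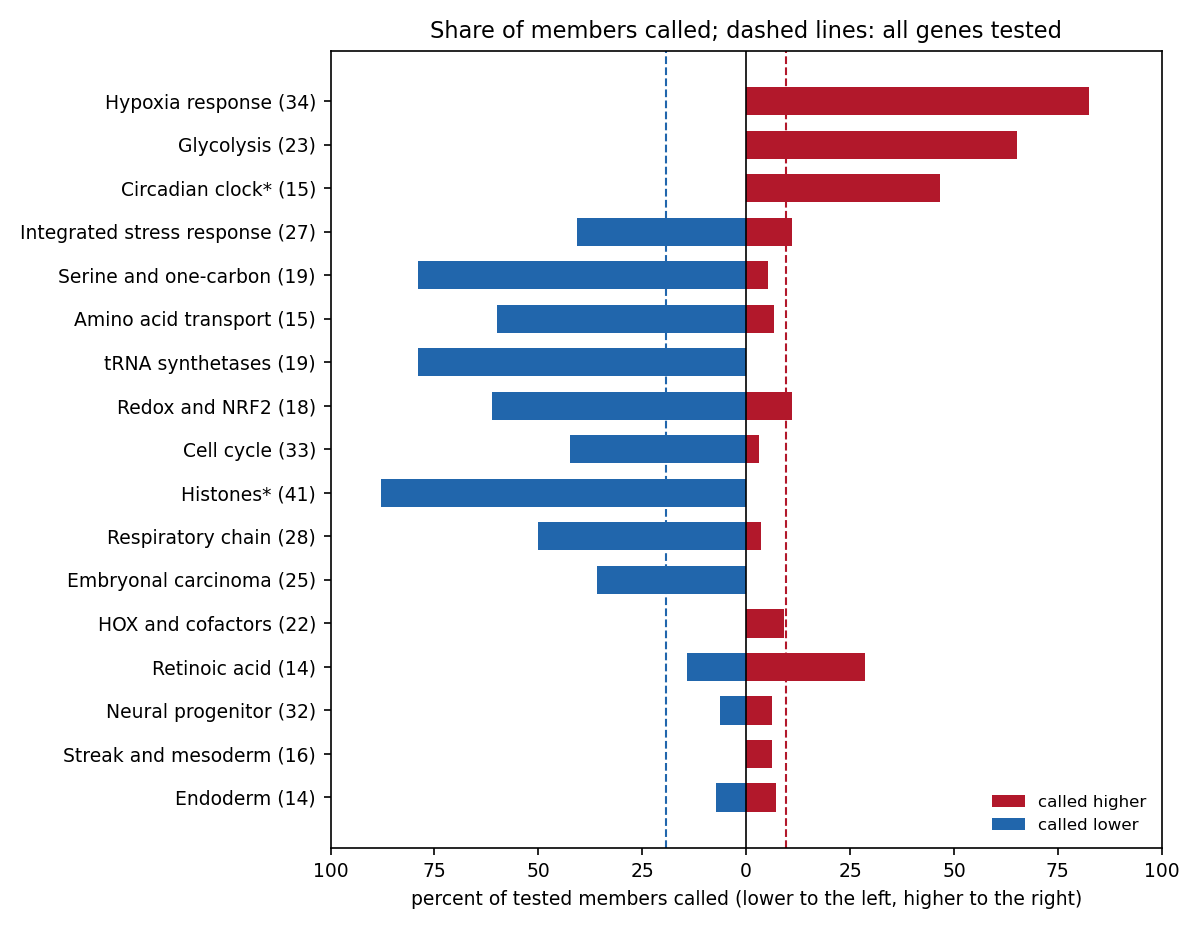
Percent of tested members called lower (blue, to the left) and higher (red, to the right) in each list (y axis, number tested in brackets); dashed lines give the same over all genes tested, 19.4% lower and 9.71% higher, and asterisks mark lists drawn up after values were seen. Hypoxia and glycolysis genes were called higher in 82.4% and 65.2% of cases, and histone, serine and tRNA synthetase genes lower in 87.8%, 78.9% and 78.9%.

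Some pluripotency genes fell by less than 2-fold. Of 25 tested embryonal carcinoma markers 9 were called lower (36%, against 19.4% of all genes) and 0 higher, with a median difference of -0.21, and 18 lay below undifferentiated cells on both day 7 arrays. Fewer were called lower, as over all genes, when either day 7 array was left out. ZFP42, the marker REX1, had 10.22 and 10.27 at day 7 against 10.86 in undifferentiated cells (1.53-fold lower, adjusted p = 0.00916). TFCP2L1, a factor of the naive state, had 8.38 and 8.35 against 8.96 and LIN28B, an inhibitor of let-7 processing, 9.41 and 9.51 against 9.99. FGF2, TERF1, DNMT3B, DPPA4, LIN28A and SFRP2 fell by 0.47, 0.33, 0.33, 0.32, 0.30 and 0.26. SOX2, a core pluripotency factor, had 12.21 and 12.18 at day 7 against 12.17 and was not called, nor was PRDM14 at 11.49 and 11.56 against 11.67, L1TD1 at 10.48 and 10.46 against 10.51 or CRIPTO, a NODAL co-receptor, at 12.45 and 12.44 against 12.22. Of the other markers not called, DPPA3, GDF3, PODXL, KLF4, ZSCAN10, USP44 and UTF1 had differences from -0.38 to -0.04, and SALL4, EPCAM, DPPA2, LEFTY1 and LEFTY2 from 0.03 to 0.19. DPPA3 and EPCAM each had 2 probe sets and the values are those of the brighter, so they may not speak for the gene. POU5F1 and NANOG were not analysed here.

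Streak and mesoderm, endoderm, neural and neural crest markers were called at rates near or below those of all genes, 9.71% higher and 19.4% lower. In the streak and mesoderm list 11 genes were too dim to test, and of 16 tested 1 was called higher (6.25%), HAND1 at 8.49 and 8.55 against 8.06 in undifferentiated cells, and in the endoderm list 8 were too dim, and of 14 tested 1 was higher (7.14%), the chemokine receptor CXCR4 at 8.52 and 8.51 against 7.83, and 1 lower, the endocytic adaptor DAB2 at 7.81 and 7.85 against 8.85. Of 32 neural progenitor genes 2 were higher, IRX1 and ZIC2 by 0.62 and 0.35, and 2 lower, FABP7 and MSI1 with differences of -0.68 and -0.42. Without the array with no addition 0 of these neural progenitor calls held. Of 7 germ cell genes and 6 tested markers of other tissues limma called 0, with 1 in each lower at an unadjusted p under 0.05. Of 12 neuron genes 1 was higher (8.33%) and 2 lower (16.7%), and of 10 neural crest genes 1 (10%) and 2 (20%). Of 4 tested trophoblast genes 1 was higher (25%), HAND1 again, and 0 lower. Of 6 tested endothelium and blood genes 1 was higher (16.7%) and 1 lower (16.7%). In the endothelium and blood list, PTPRB, the endothelial receptor phosphatase VE-PTP, had the largest difference of all genes, with 10.36 and 10.14 at day 7 against 7.44 (2.81 ± 0.31, limma SE, 7.01-fold, adjusted p = 0.00153). FLT1, a VEGF receptor of the same list, had 7.60 and 7.55 against 8.33 (1.69-fold lower), and HBE1, GATA1 and RUNX1 were not called.

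OLIG3, a transcription factor of dorsal neural tube progenitors outside the fixed lists, had 10.29 and 10.24 at day 7 against 8.22 in undifferentiated cells (4.11-fold, adjusted p = 0.000322). VIPR2, a receptor for the peptides VIP and PACAP, had 9.70 and 9.76 against 7.50 (4.68-fold, adjusted p = 0.00196). DNAH11, a dynein heavy chain of cilia, had 9.11 and 8.82 against 6.48, and ADAMTS20, a secreted metalloprotease, 9.40 and 9.06 against 7.30. On each of these genes both day 7 arrays lay more than 1.5 log2 units above undifferentiated cells. In the other direction GNG4, a G protein gamma subunit, had the largest difference, with 7.84 and 7.72 at day 7 against 9.53 (3.36-fold lower, adjusted p = 0.000532), followed by CHAC1, the small X-linked gene BEX1 at 7.07 and 7.06 against 8.65, and INHBE, an activin subunit, at 7.21 on both against 8.78.

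In the Notch and hedgehog list 6 of 22 tested members were called higher (27.3%, against 9.71% of all genes) and 0 lower, led by PTCH1, the hedgehog receptor and target, at 11.60 and 11.59 on the day 7 arrays against 9.95 in undifferentiated cells (3.14-fold, adjusted p = 0.000322). HES1, a Notch target, had 8.90 and 8.66 against 7.82, and JAG1, a Notch ligand, and NOTCH1, a receptor, rose by 0.80 and 0.79. In the retinoic acid list 4 of 14 were higher (28.6%) and 2 lower (14.3%): CRABP2, a binding protein, had 9.42 and 9.38 against 8.34 (2.09-fold, adjusted p = 0.0025), DHRS3, STRA6 and CYP26A1 rose by 0.84, 0.70 and 0.63, and RDH10, which makes retinal, had 7.41 and 7.48 against 8.33 (1.85-fold lower). Of 22 tested HOX genes and cofactors 2 were higher (9.09%, near the 9.71% of all genes) and 0 lower (against 19.4%). The higher genes were MEIS2 at 9.14 and 9.16 against 7.89 (2.39-fold, adjusted p = 0.000736) and HOXB2 at 7.79 and 7.77 against 7.34. Of the 22, 13 lay below the median of all values on all 3 arrays compared and passed the filter on dim genes through another array.

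IGFBP2 and IGFBP5, binding proteins of insulin-like growth factors, had 12.54 and 12.51 at day 7 against 11.05 in undifferentiated cells (2.79-fold, adjusted p = 0.000322) and 8.68 and 8.60 against 7.39 (2.37-fold, adjusted p = 0.000532). In their list 5 of 19 were called higher (26.3%, against 9.71% of all genes) and 3 lower (15.8%, against 19.4%). Of the lower genes, the neuropeptide GAL had 9.44 and 9.31 against 10.54 (2.24-fold lower). Beside the same shares of all genes, the NODAL, BMP and TGF-beta list had 5 of 32 higher (15.6%) and 4 lower (12.5%). The FGF and ERK list had 5 of 23 (21.7%) and 3 (13%), and the WNT list 3 of 23 (13%) and 1 (4.35%). The immediate early list had 3 of 21 (14.3%) and 2 (9.52%). Among members of these lists, ID2, a BMP target, had 11.16 and 11.12 against 10.12, and SPRY1, an inhibitor of receptor tyrosine kinase signalling, 9.12 and 8.97 against 7.87. DUSP6, the ERK phosphatase, had 6.82 and 6.62 against 7.75, and JUN, an AP-1 subunit, 9.92 and 10.00 against 8.60.

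Of 30 tested matrix and mesenchyme genes 8 were higher (26.7%, against 9.71% of all genes) and 3 lower (10.0%). Of 32 YAP targets and adhesion genes 1 was higher and 8 lower (25%, near the 19.4% of all genes). Fewer were called lower, as over all genes, without the FA array. CDH1, the epithelial cadherin, had 10.15 and 10.04 at day 7 against 8.81 in undifferentiated cells (2.43-fold, adjusted p = 0.00244), and LOXL2, a collagen cross-linking enzyme, 10.44 and 10.34 against 9.19 (2.31-fold, adjusted p = 0.00164). TNC, tenascin C, had 7.70 and 7.65 against 8.76 (2.12-fold lower, adjusted p = 0.00121), and S100A11, a calcium-binding protein, 9.75 and 9.76 against 10.96 (2.31-fold lower, adjusted p = 0.00111). KRT8 and KRT18, the paired keratins of simple epithelium, fell by 0.75 and 0.67, and VIM, the mesenchymal filament, rose by 0.62. Of 15 cholesterol synthesis genes 3 were higher (20%, against 9.71% of all genes), INSIG1, STARD4 and SREBF2, and 3 lower (20%, near the 19.4% of all genes). The higher calls were lost without the array with no addition. Of 16 p53 targets 1 was higher (6.25%, against 9.71% of all genes) and 2 lower (12.5%, against 19.4%). Of 15 heat shock genes 0 were higher and 4 lower (26.7%), with 0 and 7 at an unadjusted p under 0.05. Fewer heat shock genes were called lower, as over all genes, when either day 7 array was left out.

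Several early differences turned back, in part or wholly, by day 21. The day 21 arrays without ethanol are set against the same day 7 arrays, so the early and the late difference share them. PTPRB had 7.44 in undifferentiated cells, 10.36 and 10.14 at day 7, and 8.21 and 7.90 at day 21 (day 21 minus day 7, limma adjusted p = 0.000325). OLIG3 had 8.22, then 10.29 and 10.24, then 7.72 and 7.71 (adjusted p = 5.87e-07), and VIPR2 7.50, then 9.70 and 9.76, then 7.22 and 7.12 (adjusted p = 8.2e-05), so both were below the undifferentiated level by day 21, while PTPRB was still above it. Of the hypoxia genes, PFKFB4 had 10.00 and 10.07 at day 21 against 8.54 in undifferentiated cells, NDRG1 9.01 and 9.0 against 8.13, and LOX 9.23 and 8.86 against 9.23. SLC2A1 stayed near its day 7 level, at 13.50 and 13.56. The median of the hypoxia list over the undifferentiated array was 1.20 and 1.14 at day 7 and 0.76 and 0.72 at day 21; with ethanol at day 7 it was 0.53 without FA and 1.02 with it, a difference that was not tested.

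Among genes that fell and then recovered, ODC1, the first enzyme of polyamine synthesis, had 11.38 in undifferentiated cells, 10.25 and 10.35 at day 7, and 11.88 and 12.00 at day 21. NNAT, an imprinted membrane protein gene, had 10.46, then 9.39 and 9.36, then 10.44 and 10.38. DUSP6 had 7.75, then 6.82 and 6.62, then 11.02 and 10.96. Genes of the amino acid and stress lists went both ways after day 7. SLC7A11 had 9.13 and 9.12 at day 21, CHAC1 7.78 and 7.69, and ASNS 8.63 and 8.62, each below its day 7 level (limma adjusted p = 6.88e-05, 0.000203 and 8.23e-05). SLC1A4, a neutral amino acid carrier, had 7.77 in undifferentiated cells, 6.96 and 6.77 at day 7, and 7.73 and 7.75 at day 21 (adjusted p = 0.000607), and WARS1 had 11.51, then 10.48 on both, then 10.93 and 10.96 (adjusted p = 0.00124).

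Other genes moved mostly after day 7. SOX2 had 11.67 and 11.55 at day 21, PRDM14 8.75 and 8.91, and DNMT3B, a DNA methyltransferase, 9.47 and 9.55, and the median of the embryonal carcinoma markers over the undifferentiated array was -0.19 and -0.18 at day 7 and -1.50 and -1.62 at day 21. HOXB2 had 11.52 and 11.51 at day 21, MEIS2 12.21 and 12.10, CYP26A1 12.61 and 12.64, and IGFBP5 11.61 and 11.50, all above their day 7 levels (limma adjusted p from 6.24e-08 to 3.21e-07). The median of the HOX list was -0.02 and -0.01 at day 7 and 2.36 and 2.41 at day 21. Of its 22 tested members, 13 passed the filter on dim genes only through an array outside the 3 compared, and 1 further gene was too dim to test. The filter thus favours members that are high on other arrays, such as those of day 21.

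**Figure D4:**
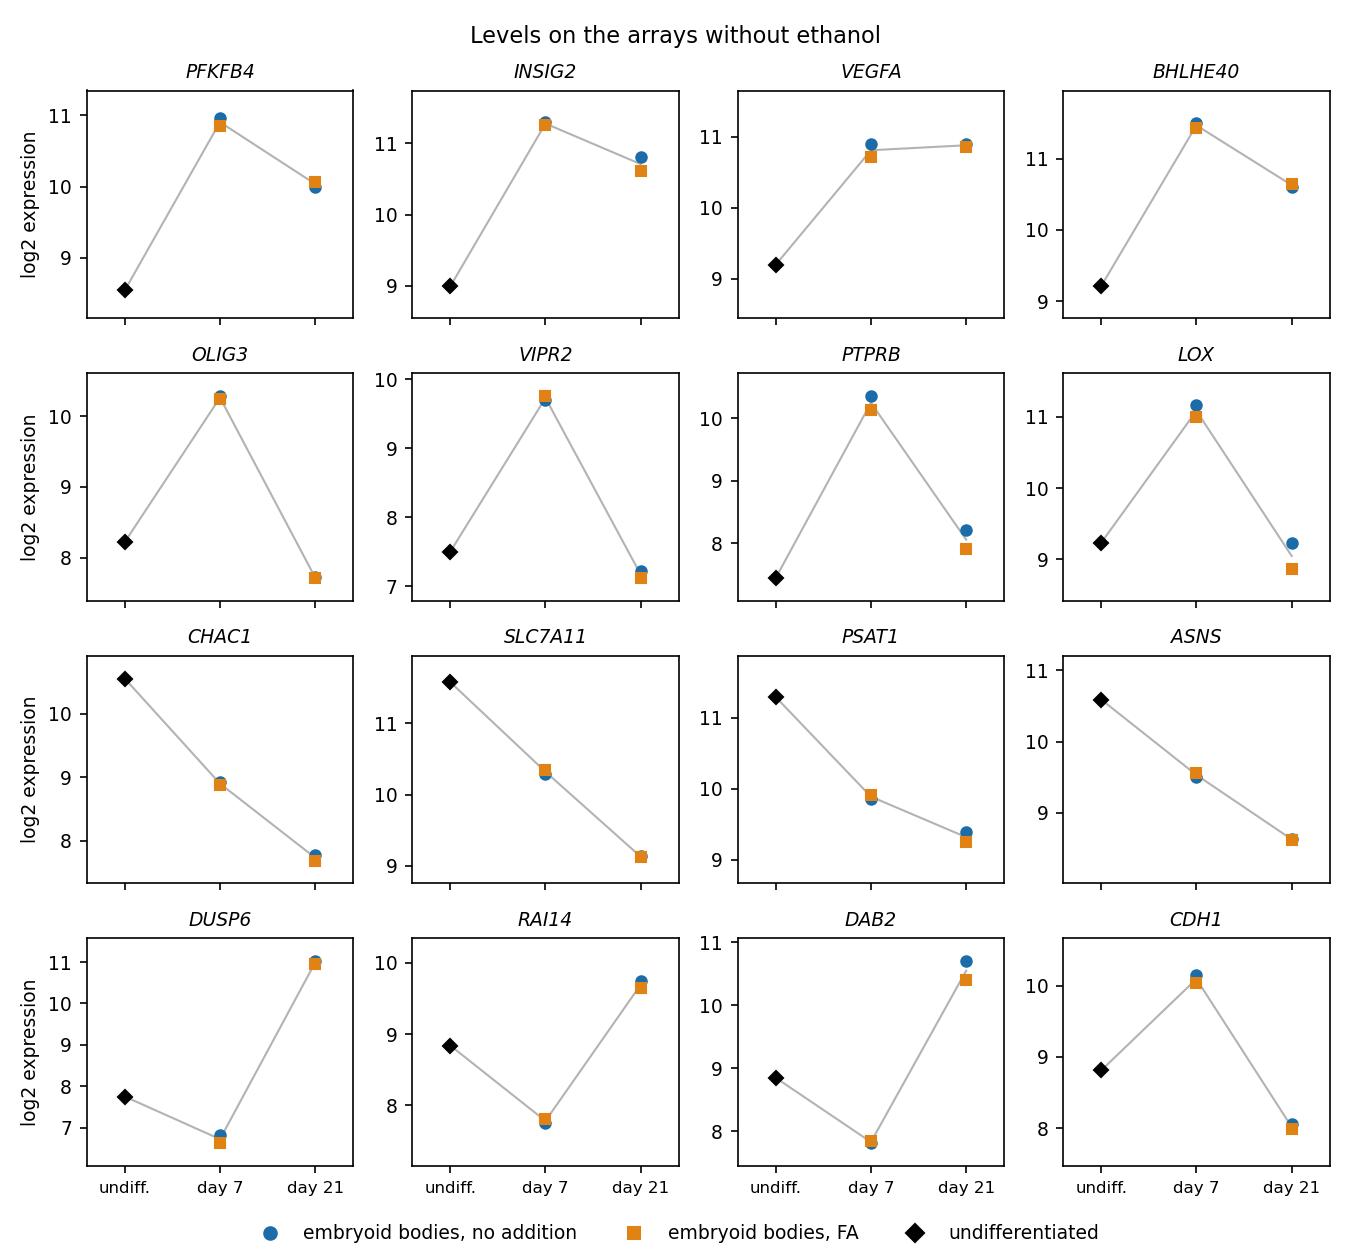
Log2 expression (y axis, its own range in each panel) of 16 genes on the 5 arrays without ethanol, from undifferentiated cells (diamond) to day 7 and day 21 (circles without addition, squares with FA); lines join group means. OLIG3 and VIPR2 return to or below the undifferentiated level, CHAC1, SLC7A11, PSAT1 and ASNS go on falling, and DUSP6, RAI14 and DAB2 dip at day 7 and end above the undifferentiated cells.

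Noncoding transcripts were called in both directions. Of all genes tested, 9.71% were called higher and 19.4% lower, and the counts of each class stand beside these shares. Of 110 tested small nucleolar RNAs 20 were called higher and 4 lower, of 17 spliceosomal small nuclear RNAs 2 and 9, of 35 microRNA genes 3 and 1, and of 3 vault RNAs 0 and 3, with a median difference of -1.23 for the last. Of 199 long noncoding RNAs 31 were higher and 19 lower, and of 11660 protein-coding genes 1096 and 2318.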

How the data were processed

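Gene expression was measured on 9 Affymetrix whole-transcript arrays, 1 per condition, from total RNA (Trizol) copied into biotinylated cDNA according to the labels' protocols. The values used are the log2 expression values deposited by the authors, which per the submitters' processing notes came from RMA in Affymetrix Expression Console 1.3.1. No label states the base of the logarithm, and it was taken from the range of the values, 2.49 to 14.3. RMA quantile-normalizes the arrays to each other, which hides a shift shared by most transcripts and shrinks the differences of dim ones. For the array annotation, the genome build is not given in the sources.

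Of 33297 transcript clusters, 19460 had 1 gene symbol in the platform annotation, 1754 several and 12083 none given here. Genes were named from the first kind only, which gave 18417 genes, and for the 769 with several clusters the brightest was used. Genes whose highest level on any of the 9 arrays was not above 7.71, the median of the whole table, were set aside (6163), and 12254 were tested. Of those kept, 70 passed only through the day 7 arrays without ethanol, 30 of them called higher, and 62 only through the undifferentiated array, 42 of them called lower.

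The test was limma 3.58.1 in R 4.3.3, with a mean for each combination of day and ethanol and 1 for undifferentiated cells, with 4 residual degrees of freedom. Differences between arrays with and without FA count as spread, the lone undifferentiated array is assumed to vary like the others, and p-values reflect the scatter among these arrays alone, which may be technical. P-values were adjusted by the Benjamini-Hochberg method over all 12254 genes, and the number of arrays limits the precision. The procedure was run on simulated arrays with known differences and independent noise. The undifferentiated array was given the same spread as the others there, so the simulation cannot check that assumption. No test was made of a list as a whole.

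The comparison and the 33 gene lists were chosen with earlier results of these data known, and 2 further lists (clock genes and replication-dependent histones) were added after values were seen. Genes were named by a rule: the 15 largest called differences in each direction, up to 5 members per list by size of difference, all embryonal carcinoma markers, the 10 largest early calls in each direction that turned back by day 21, and the 5 largest differences between FA and no addition in each direction, passing over small RNAs, pseudogenes and provisional names. The other genes named were picked after their values were seen. Alternatives changed the filter, the model, the scaling, the choice among clusters, the variance prior and the arrays included. Promoter windows are those of RefSeq, GRCh38.p14, the first listed window of a gene where there were several.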

Additional observations from a re-analysis of the deposited data

Results flagged for a closer look

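For 7 named genes, both day 7 arrays without ethanol lay on one side of the undifferentiated array and both day 21 arrays without ethanol on the other, each by at least 1.5-fold, and the change between those days passed limma's test. DUSP6, the ERK phosphatase, was 4.27 log2 units higher at day 21 than at day 7 (adjusted p = 8.84e-07), DAB2 was 2.72 higher (adjusted p = 1.23e-06) and RAI14, an actin-associated protein, 1.91 higher (adjusted p = 3.03e-06), after each had fallen by day 7. The change was -2.08 for CDH1 (adjusted p = 1.91e-05), -1.84 for LOXL2 (adjusted p = 1.25e-05), -1.78 for INSIG1 (adjusted p = 5.46e-05) and -1.74 for STARD4 (adjusted p = 0.000261), after each had risen by day 7. INSIG1 and STARD4 are both on the cholesterol list. The early and the late difference share the day 7 arrays. Each group has 2 arrays or 1, so no outlying array could be looked for.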

How the results depend on the processing

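No paired analysis was possible because each condition has 1 array and the labels give no replicate numbers. Counts of called genes kept within 1.5 times under the other filters, models, scalings and variance priors, with these exceptions. Leaving out 1 array at a time gave 529 to 1629 genes called higher and 1055 to 2902 called lower, the lowest values coming from the settings with a single day 7 array, which have fewer arrays. With all 4 day 7 arrays, those with ethanol included, an alternative chosen after seeing the data, 764 genes were called higher. Genes at least 2-fold apart in every day 7 array used numbered 122 to 151 higher and 43 to 58 lower with 1 array left out. With no array left out, 18 to 20 of the 20 named turned-back genes kept a limma adjusted p under 0.05 from day 7 to day 21. The number was lowest with a single day 7 array, and the early call was not part of this count. Of 227 named genes 167 were called, 120 of these under every alternative run and 134 under all but those with a single day 7 array, and none of the 167 changed direction. The 30 largest differences were called under every alternative run. Direction changed only for named genes that were not called: with arrays centred CASZ1 -0.05, CDX2 -0.06, GATA3 -0.07, LEFTY1 -0.04 and SOX2 -0.04, with additive terms DPPA2 -0.10, EPCAM -0.02 and GATA3 -0.04, and with 1 array left out ADAM12 ranged from -0.11 to 0.30, CASZ1 from -0.21 to 0.25, GATA3 from -0.03 to 0.05 and APOA1 from -0.05 to 0.01. The cause of these changes was not tested. The low number of arrays and the compression of dim signals by RMA limit small differences.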
